A study of Mus musculus with 4 samples.

Results

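E proteins and their inhibitors, the Id proteins, were followed in RNA-Seq of differentiating brown preadipocytes with and without the histone methyltransferase MLL4. The 7 genes are *Tcf3*, *Tcf4* and *Tcf12*, which encode the E proteins, and *Id1*, *Id2*, *Id3* and *Id4*. They were found by symbol among the RefSeq transcripts of the count files, where they make up 7 of 22463 named genes and 19 of 29082 transcripts. *Tcf3* has 8 listed transcripts, *Tcf12* 5, *Tcf4* 2 and each *Id* gene 1. Each gene is represented by the transcript with most reads over the 4 libraries. *Tcf7l1* and *Tcf7l2*, which carry *Tcf3* and *Tcf4* as older names, encode HMG box proteins of Wnt signalling and were not counted as members.

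The cells were brown preadipocytes, the precursors of brown fat cells, taken from E18.5 C57BL/6J embryos and immortalized by means of SV40T, a viral oncogene. All of them carried *Mll3*-/- and floxed *Mll4* alleles. Those infected with adenoviral GFP (Ad-GFP, called GFP cells from here on) remained *Mll3*-/-, while those infected with adenoviral Cre recombinase (Ad-Cre, called Cre cells) became *Mll3*-/-;*Mll4*-/-. GFP cells are labelled WT, but they lack MLL3, and no cell with intact *Mll3* is part of the comparison. RNA was sequenced at day 0, reached 2 days after confluence, and at day 2, after treatment with insulin, T3, indomethacin, dexamethasone and IBMX. These are cultured cells of immortalized preadipocytes, and no source used here says that several lines were sequenced.

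There was 1 library for each of the 4 conditions, so no difference has a replicate check and no test was run. Each ratio is given with an exact 95% interval for counting error of reads, which says nothing of the spread between cultures. In bulk RNA, fewer cells of a type and less RNA per cell cannot be told apart. Ratios against the library of Cre cells at day 2 moved with transcript length and GC content, and where it matters a ratio is also given after division by the median trend of expressed genes over both. Mapped reads ran from 17198448 to 22986362 per library, and 3 reads on a transcript of 1 kb corresponded to 0.131 to 0.174 RPKM (reads per kilobase of exon, scaled to the mapped reads of the library). A gene was called expressed with an RPKM above 1 on either day in GFP cells, which 11541 genes passed, all 7 members among them. A ratio past 2.5-fold was the cutoff. Positions of genes are on NCBI37/mm9, and reads were counted over all exons of a transcript. Reads on the whole *Kmt2d* (*Mll4*) transcript numbered 6304 and 8530 in GFP cells at day 0 and day 2, and 6316 and 5595 in Cre cells. A count over the whole transcript does not show the loss of a few exons, so the libraries are named by their labels.

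E proteins are basic helix-loop-helix (bHLH) transcription factors that are made in most tissues. They bind DNA as dimers at the E-box, whose letters are CANNTG, either with each other or with a tissue-restricted bHLH partner such as the myogenic factors. Id proteins have the helix-loop-helix but lack the basic region that touches DNA, so a dimer of an Id and an E protein does not bind. *Id* genes are known targets of BMP signalling through SMAD proteins, and Id proteins are commonly high in proliferating precursors. The balance of Id and E proteins is therefore a usual measure of how far bHLH factors are held back.

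*Id4* and *Id2* were the *Id* genes with the highest ratios of Cre to GFP cells at day 0, and the 250 bases before their RefSeq start sites are shown for that reason. The sequences come from the RefSeq promoter table of GRCm38.p6 and were placed by exact match on NCBI37/mm9, *Id4* at chr13:48356235-48356484 on the plus strand and *Id2* at chr12:25780958-25781207 on the minus strand. Gene positions given below come from another annotation, GENCODE vM1. The *Id2* window adjoins the gene start there (25780957), but the *Id4* window ends upstream of it (48356796), and the bases between are not shown. Capitals mark CANNTG and CCAAT, the latter read on either strand (ATTGG on the other).
Id4: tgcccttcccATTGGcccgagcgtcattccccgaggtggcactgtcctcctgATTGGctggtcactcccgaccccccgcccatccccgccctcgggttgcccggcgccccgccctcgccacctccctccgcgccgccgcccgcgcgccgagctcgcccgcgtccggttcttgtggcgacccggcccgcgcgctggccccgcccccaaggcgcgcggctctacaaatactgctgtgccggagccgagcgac
Id2: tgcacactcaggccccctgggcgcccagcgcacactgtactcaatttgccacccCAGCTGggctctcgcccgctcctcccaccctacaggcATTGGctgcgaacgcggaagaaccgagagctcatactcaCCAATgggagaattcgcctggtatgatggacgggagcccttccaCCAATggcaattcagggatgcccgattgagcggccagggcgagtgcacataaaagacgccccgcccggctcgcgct

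The *Id4* window held 2 CCAAT, 5 GGGCGG and 1 GGCGCC and no CANNTG on either strand. The *Id2* window held 3 CCAAT, 1 CANNTG, 1 GGGCGG and 1 GGCGCC. Neither held TATAAA or TGACGTCA. Of 27025 RefSeq promoter windows of the same length, 66.0% held CANNTG, 34.5% CCAAT, 32.9% GGGCGG, 9.54% GGCGCC, 13.0% TATAAA and 1.62% TGACGTCA. At least 2 CCAAT were present in 10.5% of these windows and at least 3 in 2.98%. These matches describe letters in a window, and no binding at them was measured here. The promoter table has no entry for *Id1*. The chromosome that holds *Tcf4* was left out of the promoter search and of the 27025 windows, so no window was obtained for *Tcf4*.

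Among the E proteins, *Tcf3* RNA, which encodes the E2A proteins E12 and E47, was the most abundant per length in each library by deposited RPKM. *Tcf3* (NM_001164150, chromosome 10 from 79872259 to 79896392 on the minus strand) had 3686 reads or 64.7 RPKM in GFP cells at day 0 and 3504 reads or 46.0 RPKM at day 2. The Cre libraries held 4244 reads or 65.7 RPKM at day 0, then 4378 reads or 73.3 RPKM at day 2. The library of GFP cells at day 2 was thus the low one, and the day 0 libraries of both cell types were within counting error of each other. The log2 ratio of Cre to GFP cells was 0.02 (95% interval −0.04 to 0.09) at day 0, then 0.67 (0.61 to 0.74) at day 2. With the length and GC trends divided out of the library of Cre cells at day 2, *Tcf4* came first at 98.5 RPKM and *Tcf3* stood at 52.8 RPKM.

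*Tcf4*, which encodes E2-2, differed between day 0 and day 2 in opposite directions in the 2 cell types. *Tcf4* (NM_013685) had 3019 reads (23.5 RPKM) in GFP cells at day 0 and 2017 reads (11.8 RPKM) at day 2, 2.00-fold lower. Cre cells had 4032 reads (27.7 RPKM) at day 0, then 6458 reads (48.0 RPKM) at day 2, 1.73-fold higher. The 4 counting intervals do not overlap, and the 2 cell types, close at day 0, stood 4.08-fold apart at day 2. As a log2 ratio of Cre to GFP cells, it was 0.24 (0.17 to 0.30) at day 0, then 2.03 (1.96 to 2.10) at day 2.

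*Tcf12*, which encodes HEB, was the only E protein gene with less RNA in Cre than in GFP cells at day 2. *Tcf12* (NM_011544, chromosome 9 from 71692059 to 71959626 on the minus strand) had 2413 reads (29.8 RPKM) in GFP cells at day 0 and 3335 reads (30.8 RPKM) at day 2. In Cre cells it had 2372 reads (25.8 RPKM) at day 0, then 982 reads (11.6 RPKM) at day 2. The first 3 libraries lay close together and the library of Cre cells at day 2 stood below them. Cre and GFP cells differed by a log2 ratio of −0.21 (−0.29 to −0.12) at day 0, then −1.41 (−1.52 to −1.31) at day 2. It lay within 2.5-fold with scaling by summed counts (−1.28), with TMM factors, which centre the expressed genes (−1.23), and with the length and GC trends divided out (−0.59).

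*Id3* carried the most RNA per length of the *Id* genes in all 4 libraries. *Id3* (NM_008321, chromosome 4 from 135699412 to 135701670 on the plus strand) had 2045 reads (124.8 RPKM) in GFP cells at day 0 and 974 reads (44.5 RPKM) at day 2, 2.81-fold lower. The Cre libraries held 3144 reads (169 RPKM) at day 0, then 2774 reads (161 RPKM) at day 2. GFP cells at day 2 were the low library, and in Cre cells the log2 ratio of day 2 to day 0 was −0.07 with an interval (−0.14 to 0.01) that includes 0. Across cell types the log2 ratio was 0.44 (0.36 to 0.52) at day 0, then 1.86 (1.75 to 1.97) at day 2. With both trends divided out, the day 2 to day 0 log2 ratio was −1.42 in GFP cells and −1.0 in Cre cells, while the day 2 ratio of Cre to GFP cells was 1.20, below 2.5-fold.

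*Id4* was the rarest member in GFP cells and had the highest ratio of Cre to GFP cells of the 7 genes on both days. *Id4* (NM_031166, chromosome 13 from 48356796 to 48359405 on the plus strand) had 49 reads (1.72 RPKM) in GFP cells at day 0 and 67 reads (1.76 RPKM) at day 2. Cre cells had 171 reads (5.28 RPKM) at day 0, then 956 reads (31.9 RPKM) at day 2. The GFP libraries were within counting error of each other, Cre cells at day 0 lay above both, and Cre cells at day 2 lay above all. *Id4* RNA was 3.08-fold higher in Cre cells at day 0 (log2 1.62, 1.16 to 2.11) and 18.2-fold higher at day 2 (log2 4.19, 3.83 to 4.56). Within Cre cells it was 6.05-fold higher at day 2 than at day 0 (log2 2.60, 2.36 to 2.84). Of 11526 expressed genes 37 had a higher ratio of Cre to GFP cells at day 2, and 98 of 11530 at day 0. These counts leave out genes read mainly in Cre cells, since genes were called expressed by GFP cells alone. With the length and GC trends divided out the log2 ratios were 1.68 at day 0 and 4.19 at day 2.

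*Id2* RNA was higher in Cre cells on both days. *Id2* (NM_010496, chromosome 12 from 25778666 to 25780957 on the minus strand) had 286 reads (13.1 RPKM) in GFP cells at day 0 and 414 reads (14.2 RPKM) at day 2, within counting error of each other. In Cre cells it had 513 reads (20.7 RPKM) at day 0, then 753 reads (32.8 RPKM) at day 2. Both Cre libraries were above both GFP libraries. For Cre against GFP cells the log2 ratio was 0.66 (0.45 to 0.87) at day 0, then 1.21 (1.04 to 1.39) at day 2. The day 2 value lay below 2.5-fold on the deposited RPKM and past it with summed counts (1.34) and TMM factors (1.39).

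*Id1* was the only *Id* gene with less RNA in Cre than in GFP cells at day 2. *Id1* (NM_010495, chromosome 2 from 152561987 to 152563146 on the plus strand) had 285 reads (18.2 RPKM) in GFP cells at day 0 and 680 reads (32.5 RPKM) at day 2, 1.79-fold higher. The Cre libraries held 400 reads (22.5 RPKM) at day 0, then 447 reads (27.2 RPKM) at day 2. GFP cells were thus the lower of the cell types at day 0 and the higher at day 2. Set against GFP cells, Cre cells had a log2 ratio of 0.31 (0.08 to 0.53) at day 0, then −0.26 (−0.43 to −0.08) at day 2. Within Cre cells the log2 ratio between the days was 0.27, but −0.61 with the length and GC trends divided out.

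**Figure D1:**
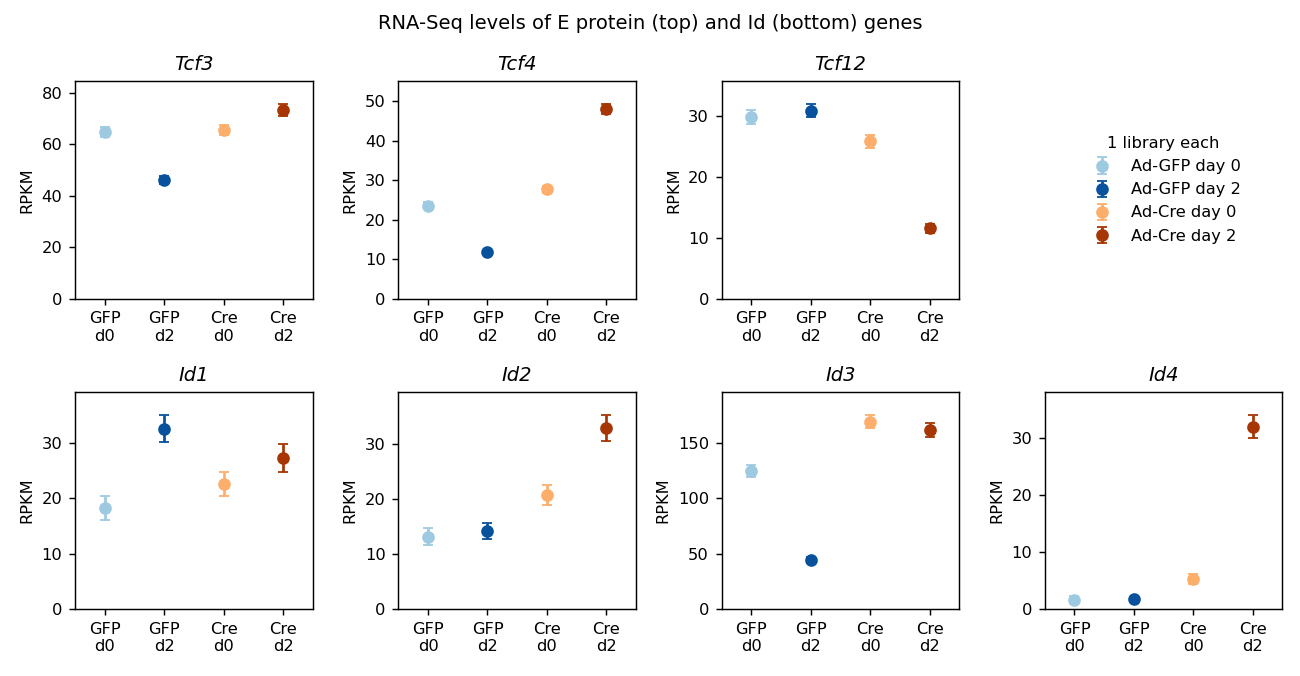
RPKM of the E protein genes (top row) and *Id* genes (bottom row) in the 4 libraries, each panel with its own axis from 0; points are single libraries and bars are 95% counting intervals. *Id4* stands at 31.9 RPKM in Cre cells at day 2 against 1.72 to 5.28 RPKM in the other libraries, and *Tcf12* at 11.6 RPKM there against 25.8 to 30.8 RPKM.

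The order of deposited levels per length differed more between the cell types at day 2 than at day 0. At day 0 both cell types had *Id3* first and *Tcf3* second, and *Id1*, *Id2* and *Id4* as the fifth, sixth and seventh. *Tcf12* ranked before *Tcf4* in GFP cells at day 0, while in Cre cells their counting intervals overlapped, as did those of *Id1* and *Id2*. In GFP cells at day 2, *Tcf3* and *Id3* led with overlapping intervals (46.0 and 44.5 RPKM), followed by *Id1* and *Tcf12*, which also overlapped. In Cre cells at day 2 the order was *Id3*, *Tcf3*, *Tcf4*, *Id2*, *Id4*, *Id1* and *Tcf12*, and of neighbours in that order only *Id2* and *Id4* had overlapping intervals. *Tcf12* was the lowest of the 7 there and *Id4* the lowest in the other 3 libraries. With the length and GC trends divided out the order in Cre cells at day 2 was another, led by *Id3*, *Tcf4* and *Tcf3*, with *Id1* the lowest at 18.2 RPKM and *Tcf12* next at 20.5 RPKM.

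**Figure D2:**
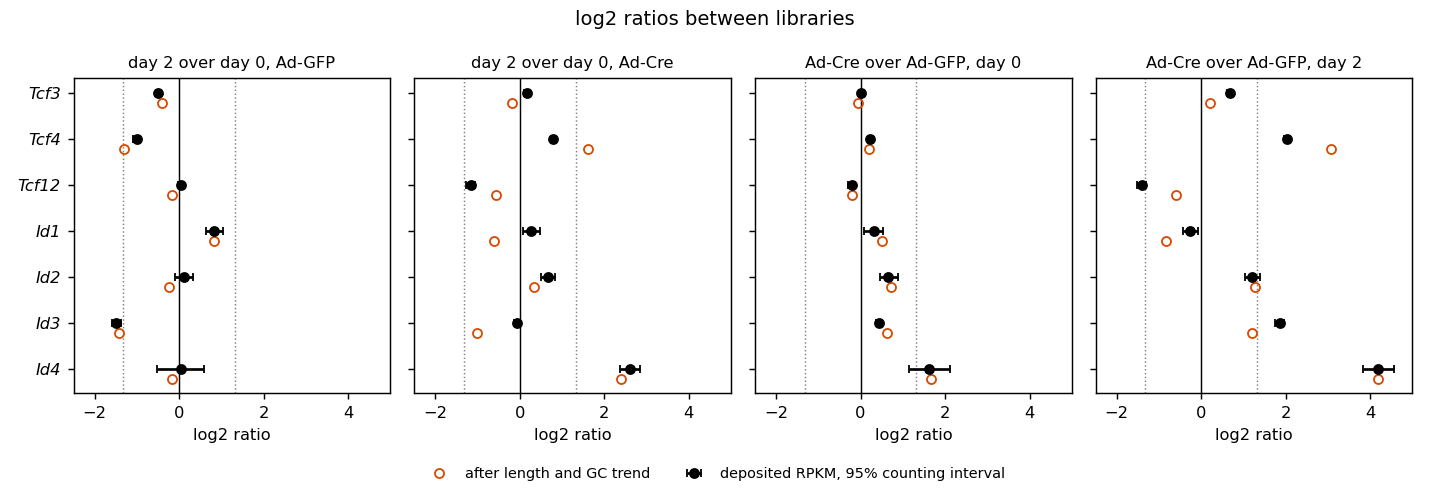
The log2 ratio of each member in the 4 comparisons, from deposited RPKM with 95% counting intervals (filled) and after division by the trends over transcript length and GC content (open); dotted lines mark 2.5-fold. *Id4* reaches 4.19 for Cre over GFP at day 2 in both, while *Tcf12* moves from −1.41 to −0.59 and *Id3* from 1.86 to 1.20.

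Members past 2.5-fold were read against all expressed genes. From day 0 to day 2 in GFP cells, 1 of 7 members (*Id3*) was past 2.5-fold lower and 0 higher, where 12.7% of expressed genes were lower and 8.38% higher. In Cre cells 1 member (*Id4*) was higher and 0 lower over the same time, against 8.68% and 10% of expressed genes. At day 0, 1 member (*Id4*) was past 2.5-fold higher in Cre than in GFP cells, against 1.27% of expressed genes, and 0 were lower, against 4.12%. Since genes were called expressed by GFP cells alone, that first share leaves out genes read mainly in Cre cells, and with an RPKM above 1 in any library it was 2.09% (247 of 11844). At day 2, 3 members (*Tcf4*, *Id3* and *Id4*) were higher, against 8.16%, and 1 (*Tcf12*) was lower, against 10.1%. With an RPKM above 1 in any library these 2 shares were 9.6% (1137 of 11839) and 9.89%. With summed counts and with TMM factors 4 were higher, *Id2* being the fourth, and 0 lower. Of 11526 expressed genes 1126 were then higher and 908 lower with summed counts, and 1207 and 818 with TMM factors. When the interval bound had to pass 2.5-fold, 3 members were higher and 0 lower, beside 579 and 680 of 11541 expressed genes. The comparisons share libraries, each library entering 2 of them. The median log2 ratio of the 4 *Id* genes was 0.55 at day 0 and 1.54 at day 2 for Cre over GFP cells, beside −0.02 and −0.16 for all expressed genes. With TMM factors the medians of all genes became 0.00 and 0.02, and that of day 2 over day 0 in GFP cells moved from 0.15 to 0.00.

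The library of Cre cells at day 2 stood apart in how its reads were spread over transcripts of different length and base composition. Its counts summed over all listed transcripts, where a read can count more than once, came to 87.8% of its mapped reads, against 96.1% to 99.4% in the other 3 libraries. The median log2 ratio of Cre to GFP cells at day 2 was 0.51 among the shortest expressed genes (median 499 bases) and −0.81 among the longest (median 8752.5 bases). It was −0.71 among genes of the lowest GC content (median 39.2%) and 0.68 among those of the highest (61.6%). At day 0 these 4 medians lay between −0.23 and 0.12. For day 2 over day 0 in GFP cells they were 0.17 and 0.16 by length and 0.37 and −0.10 by GC content. The members span this range, from *Id1* with 911 bases to *Tcf4* with 7462 bases and from 41.1% GC in *Tcf4* to 61.0% in *Tcf3*. *Tcf4* was higher in Cre cells although long genes with low GC content were lower on the whole, and its day 2 log2 ratio after division by the trends was 3.07. The corresponding values were 0.20 for *Tcf3*, 1.28 for *Id2* and −0.83 for *Id1*. The number of members past 2.5-fold at day 2 was then 2 (*Tcf4* and *Id4*, both higher) in place of 4. Of 10851 expressed genes 759 were higher and 604 lower in that setting.

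**Figure D3:**
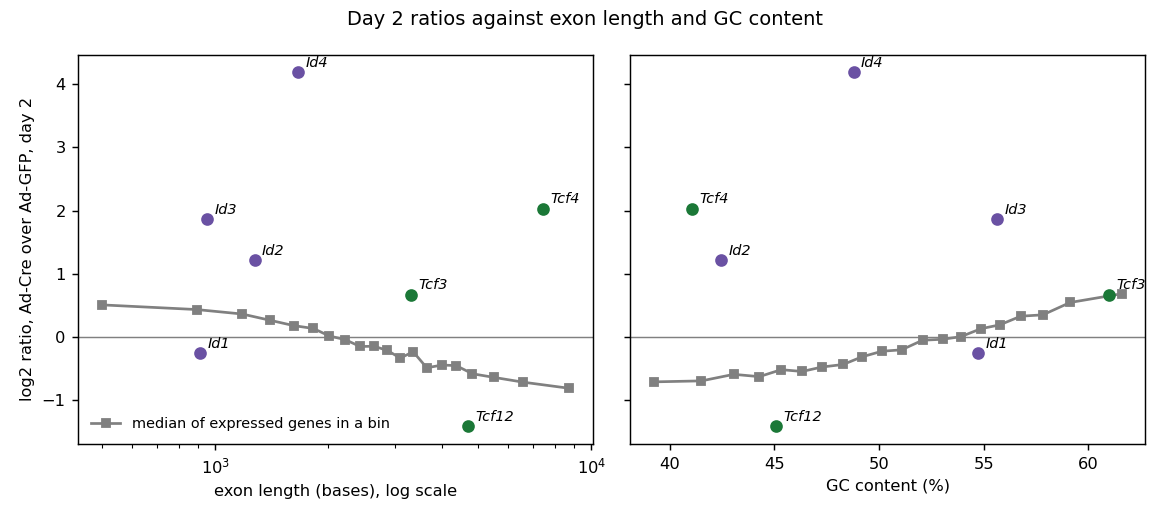
The log2 ratio of Cre to GFP cells at day 2 against exon length (left, log axis) and GC content (right), as medians of 20 bins of expressed genes (grey squares) and for E protein genes (green) and *Id* genes (violet). The grey line falls from 0.51 to −0.81 with length and rises from −0.71 to 0.68 with GC content. *Id2*, *Id3*, *Id4* and *Tcf4* lie above it in both panels, and *Tcf3* lies close to it on the right.

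Summed over the family, *Id* RNA was lower at day 2 than at day 0 in GFP cells and higher in Cre than in GFP cells on both days. The 4 *Id* genes summed to 158 RPKM in GFP cells at day 0 and 92.9 RPKM at day 2, and to 218 and 253 RPKM in Cre cells. The 3 E protein genes summed to 118 and 88.6 RPKM in GFP cells and to 119 and 133 RPKM in Cre cells. The ratio of summed Id to summed E protein RPKM was 1.34 (1.28 to 1.40) and 1.05 (0.999 to 1.10) in GFP cells, and 1.82 (1.76 to 1.89) and 1.91 (1.84 to 1.97) in Cre cells. The *Id* genes are short and the E protein genes long. When the Cre values were divided by the length trend relative to GFP cells of the same day, an alternative added after the data were seen, the ratio was 2.03 at day 0 and 1.03 at day 2. With the trends over both length and GC content it was 2.13 and 1.09. The higher ratio in Cre cells at day 2 therefore rests on the uncorrected values, while that at day 0 was present in both. RPKM measures RNA, and protein was not measured here.

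The make-up of each sum differed between libraries as well. *Id3* gave 79.1% of *Id* RPKM in GFP cells at day 0 against 47.9% at day 2, and *Id1* gave 11.5% and 35.0%. In Cre cells *Id3* gave 77.7% and 63.7%, and *Id4* gave 2.43% at day 0 and 12.6% at day 2. *Id4* gave 1.09% and 1.89% in GFP cells. *Tcf3* made up 52.0% to 55.2% of E protein RPKM in the 4 libraries as deposited. *Tcf4* and *Tcf12* gave 13.3% and 34.8% in GFP cells at day 2, and 36.1% and 8.71% in Cre cells. With the length and GC trends divided out of the library of Cre cells at day 2, *Tcf3* made up 30.7%, *Tcf4* 57.3% and *Tcf12* 11.9%.

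**Figure D4:**
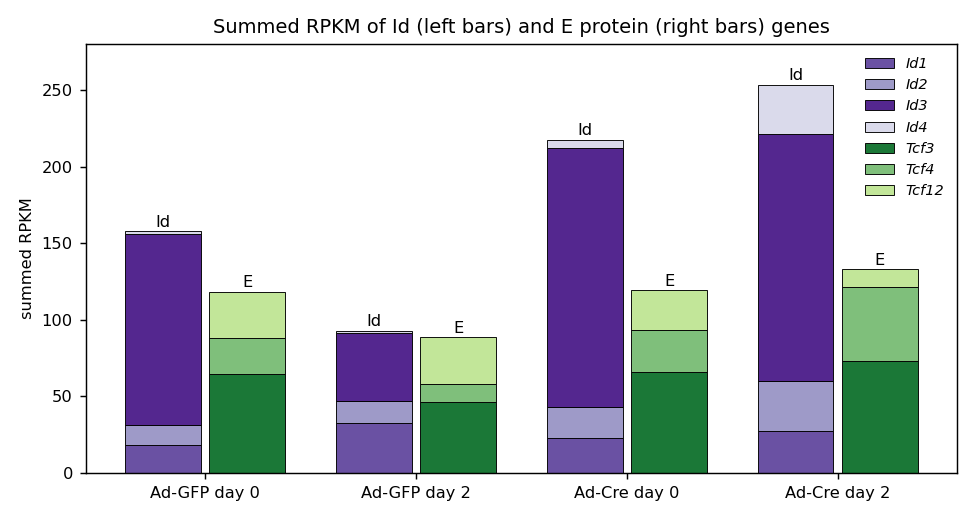
Summed RPKM of the *Id* genes (left bar of each pair) and E protein genes (right bar) in the 4 libraries, stacked by gene from 0. The *Id* bar stands at 158 and 92.9 RPKM in GFP cells and at 218 and 253 RPKM in Cre cells; the E protein bars lie between 88.6 and 133 RPKM.

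The listed transcripts of an E protein gene share most of their reads and gave nearly the same ratios. For Cre over GFP cells at day 2 the log2 ratio ran from 0.60 to 0.67 over the 8 *Tcf3* transcripts and from −1.46 to −1.39 over the 5 *Tcf12* transcripts, and it was 2.03 for both *Tcf4* transcripts. The *Tcf3* transcripts fell into 5 with more reads and 3 with fewer. In GFP cells at day 0 these held 3682 to 3686 and 3493 to 3496 reads. The transcripts with fewer reads had 94.8% and 94.3% of the reads of the others in GFP cells, 94.3% in Cre cells at day 0 and 89.7% in Cre cells at day 2. The median difference was 190, 201 and 243 reads in the first 3 of these libraries and 452 in the last. The files do not give reads per exon, so the stretch that carries the difference was not identified.

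Reads of *Id2* and *Id4* carry a limit each. Of 50-base windows along *Id2*, 24.4% (30 of 123) matched elsewhere in the genome with at most 2 mismatches, and how the authors treated reads with several matches is not given in the sources used here. For each of the other 6 genes this share was 0%. Exons of *Id4* overlap the lincRNA A330033J07Rik on the opposite strand by up to 108 bases, and the libraries do not mark strand. The share of *Id4* reads from that stretch was not tested.

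Tissue-restricted bHLH partners of the E proteins were rare in these cells apart from 3 genes. Of 33 such genes 32 were found, 4 were expressed, 20 had at most 3 reads over all libraries and 8 had none. *Myod1*, *Myf5*, *Myf6* and *Myog*, the myogenic partners, had at most 1 read in any library. *Twist1*, a mesenchymal factor, had 1430 and 1501 reads in GFP cells at day 0 and day 2, and 1614 and 2734 in Cre cells. *Twist2* had 711 and 677 reads (31.5 and 22.4 RPKM) in GFP cells and 1198 and 1218 (46.8 and 51.5 RPKM) in Cre cells. Its day 2 ratio was 1.20 (1.06 to 1.34), or 0.56 after the trends. *Atoh8*, a bHLH factor of the atonal family, had 276 and 595 reads in GFP cells and 528 and 1833 reads in Cre cells. *Scx*, the remaining expressed partner, had 58 and 33 reads in GFP cells and 23 and 29 in Cre cells. It was the 1 of 4 past 2.5-fold lower in Cre than in GFP cells at day 0 (log2 −1.52, −2.28 to −0.80). At day 0, 0 were higher, and 4.12% of expressed genes were lower and 1.27% higher. *Atoh8* was the 1 of 4 expressed partners past 2.5-fold higher at day 2 and 0 were lower, against 8.16% and 10.1% of expressed genes. It had a log2 ratio of Cre to GFP cells of 1.97 (1.84 to 2.11), and 1.5 after division by the length and GC trends. The 4 expressed partners had a day 2 median of 1.21, or 0.50 with the trends divided out.

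BMP pathway genes, which act upstream of *Id* genes, lay on both sides of 1 in the ratio of Cre to GFP cells. Of 7 BMP ligands only *Bmp4* was expressed, with 94 and 4 reads in GFP cells at day 0 and day 2, and 451 and 28 in Cre cells. The log2 ratio of *Bmp4* for Cre over GFP cells was 2.08 (1.76 to 2.42) at day 0, and in Cre cells the log2 ratio of day 2 to day 0 was −3.90 (−4.50 to −3.34). *Grem1*, a secreted BMP antagonist, had 828 and 8 reads in GFP cells and 92 and 13 in Cre cells, a log2 ratio of −3.35 (−3.68 to −3.04) at day 0. At day 0 *Bmp4* RNA was thus higher and *Grem1* RNA lower in Cre cells, but the other listed BMP inhibitors did not all follow *Grem1*. *Nog*, not called expressed, was higher in Cre cells (8 against 61 reads, log2 2.75, 1.68 to 4.02). *Smad6* (0.56) and *Smad7* (0.53) were also higher, and *Bambi* was lower (−1.01). Of 4 expressed inhibitors 0 were past 2.5-fold higher and 1 lower, against 1.27% and 4.12% of expressed genes, with a median of −0.24.

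Both inhibitory SMADs and a BMP coreceptor were lower at day 2 than at day 0 in GFP cells and higher in Cre cells at day 2. *Smad6*, an inhibitory SMAD, had 530 and 247 reads in GFP cells and 888 and 892 in Cre cells, with a day 2 log2 ratio of Cre to GFP cells of 2.20 (2.00 to 2.41). *Smad7* had 846 and 263 reads in GFP cells and 1382 and 550 in Cre cells, with a day 2 ratio of 1.41 (1.20 to 1.63). *Eng*, the coreceptor endoglin, had 1306 and 395 reads in GFP cells and 2271 and 1353 in Cre cells, with a day 2 ratio of 2.13 (1.96 to 2.29). These 3 were past 2.5-fold lower at day 2 than at day 0 in GFP cells, where 12.7% of expressed genes were. They were past 2.5-fold higher in Cre than in GFP cells at day 2, where 8.16% of expressed genes were. Both held with and without the trends divided out. Of 4 expressed BMP inhibitors, 3 were past 2.5-fold lower between the days in GFP cells. At day 2, 2 of these 4 were past 2.5-fold higher in Cre cells and 0 lower, and *Bambi* lay at 0.10.

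Of 4 expressed receptors *Eng* was past 2.5-fold higher and *Bmpr2* past 2.5-fold lower in Cre cells at day 2, where 8.16% and 10.1% of expressed genes were. The median log2 ratio of the 4 receptors was −0.57, or 0.04 with the trends divided out. *Bmpr2*, the type II receptor, had 563 and 672 reads in GFP cells and 780 and 201 in Cre cells, a day 2 log2 ratio of −1.39 (−1.63 to −1.16) that was −0.57 after division by the trends. From day 0 to day 2 in Cre cells, *Bmpr1b* (166 to 8 reads), *Bmpr2*, *Acvr1* (1302 to 415 reads) and *Smad9* (176 to 47 reads) were past 2.5-fold lower. *Bmpr1b*, at 0.80 and 0.10 RPKM in GFP cells, was not called expressed. Thus 2 of 4 expressed receptors and 1 of 4 SMADs were lower, against 10% of expressed genes. After division by the trends *Bmpr1b* was past 2.5-fold lower at −3.58, and *Bmpr2*, *Acvr1* and *Smad9* lay at −1.31, −1.30 and −1.27, just inside the cutoff. None of the 4 SMADs that carry the signal was past 2.5-fold between cell types on either day, and their day 2 median was −0.69, or −0.05 with the trends divided out.

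Cofactors of E proteins and Id proteins included 2 genes higher and 1 lower in Cre cells at day 2 of 9 expressed, against 8.16% and 10.1% of expressed genes, with a median log2 ratio of −0.01 (0.12 with the trends divided out). *Runx1t1* (ETO), a corepressor known to bind E proteins, had 1150 and 212 reads in GFP cells at day 0 and day 2 and 1607 and 857 in Cre cells, a day 2 log2 ratio of 2.37 (2.15 to 2.59). *Ldb1*, an adaptor in complexes of LIM and bHLH proteins, had 3921 and 2822 reads in GFP cells and 3791 and 6667 in Cre cells, a ratio of 1.59 (1.53 to 1.65), which was 1.09 and below 2.5-fold after division by the trends. *Kat2b*, a histone acetyltransferase, had 298 and 682 reads in GFP cells and 448 and 173 in Cre cells, a ratio of −1.63 (−1.88 to −1.39), or −0.78 after the trends. *Lmo4*, a LIM-only protein that binds LDB1, was past 2.5-fold higher at day 2 in both cell types, with 1370 and 6546 reads in GFP cells and 1477 and 7638 in Cre cells.

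**Figure D5:**
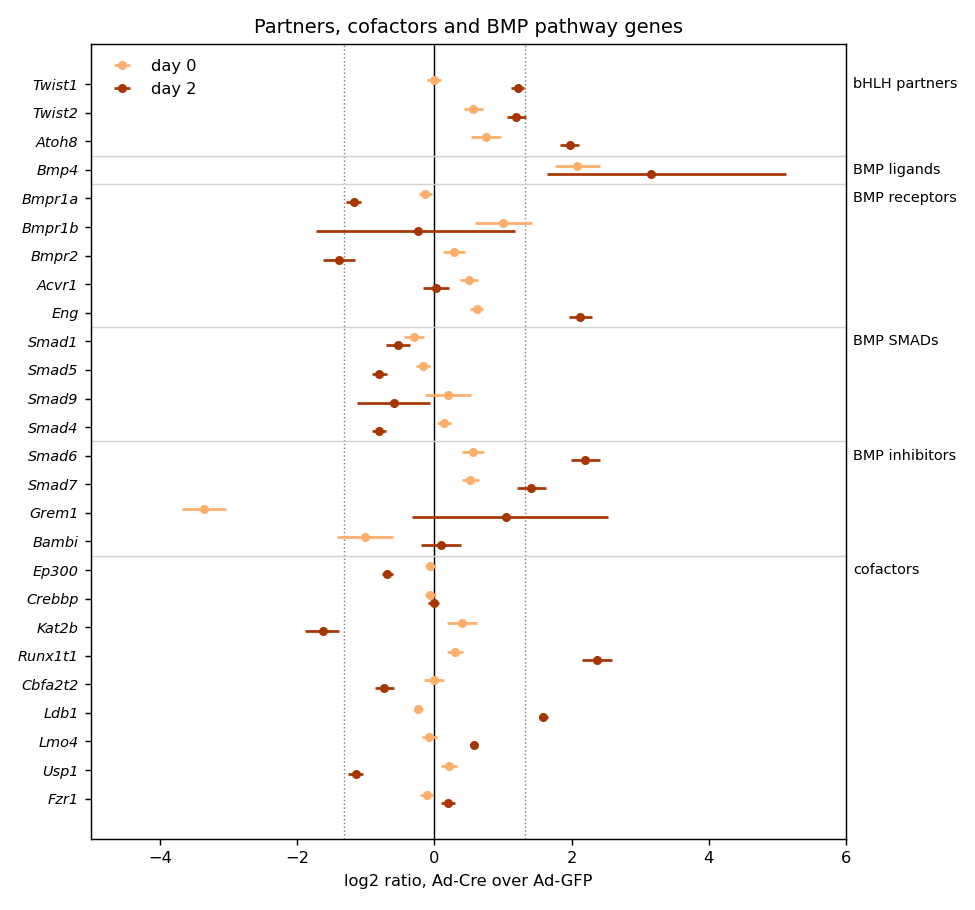
The log2 ratio of Cre to GFP cells at day 0 (light) and day 2 (dark), from deposited RPKM with 95% counting intervals, for listed partners, BMP pathway genes and cofactors with at least 100 reads in 1 library; dotted lines mark 2.5-fold. *Grem1* lies at −3.35 and *Bmp4* at 2.08 at day 0, and *Smad6*, *Eng* and *Runx1t1* lie above 2 at day 2.

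Markers of differentiation differed between the same libraries. The 7 adipocyte markers were all past 2.5-fold higher at day 2 than at day 0 in both cell types. Of expressed genes 8.38% were in GFP cells and 8.68% in Cre cells. All 7 were past 2.5-fold lower in Cre than in GFP cells at day 2, where 10.1% of expressed genes were. Their summed RPKM was 31.0 and 2105 in GFP cells at day 0 and day 2, and 16.5 and 514 in Cre cells. The 8 preadipocyte and fibroblast markers summed to 2153 and 411 RPKM in GFP cells and to 1744 and 663 RPKM in Cre cells. *Col1a1* alone held 1246.5 and 65.8 RPKM in GFP cells and 1010 and 142 RPKM in Cre cells. Between the days, 5 were past 2.5-fold lower and 0 higher in GFP cells, against 12.7% and 8.38% of expressed genes. In Cre cells 3 were lower and 2 higher (*Cd34* and *Ly6a*, the latter with 4 and 13 reads), against 10% and 8.68%. At day 0, 4 of the 8 were past 2.5-fold lower in Cre than in GFP cells, against 4.12% of expressed genes. The part of these marker differences in the *Id* and E protein values was not tested. Markers of skeletal muscle, endothelium and macrophages summed to at most 1.33 RPKM in any library, from 3 of 4 listed genes for macrophages. *Myog*, *Pax7*, *Ptprc* and *Emr1* had 0 reads in all 4 libraries. *Des*, a muscle marker not called expressed, had 19 and 5 reads in GFP cells and 0 and 49 in Cre cells. It gave 1.26 of the 1.33 RPKM, in Cre cells at day 2. All 8 preadipocyte and fibroblast markers were expressed, and they are not particular to brown fat.

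Genes with the pattern over the 4 libraries most like each member were found by the Euclidean distance of their 3 log2 ratios to GFP cells at day 0, among 9904 candidates with at least 100 reads on average. For *Id4* these were *Itm2a* (distance 0.37, with 118, 180, 327 and 2169 reads in GFP cells at day 0 and day 2 and Cre cells at day 0 and day 2), *Lhx2* (0.84) and *Pth1r* (1.01). The nearest gene was *Mfge8* for *Id3* (0.25), *Pgp* for *Id2* (0.16) and *Syngr2* for *Id1* (0.03). For the E proteins it was *Sapcd2* for *Tcf3* (0.04), *Tmem132a* for *Tcf4* (0.16) and *Ankrd28* for *Tcf12* (0.04). *Id4* was thus the member with the largest distance to its nearest gene, but it also had the most extreme ratio, 4.20 in Cre cells at day 2. Its 3 ratios share a reference of 49 reads, and no ratio was corrected for length and GC content. The distances of the members therefore do not compare evenly. Each likeness rests on 4 single libraries.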

How the data were processed

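RNA-Seq was analysed from the 4 libraries, grouped by their labels. The authors aligned 50-base reads to NCBI37/mm9 and deposited, for each RefSeq transcript, the read count on its exons and the RPKM. The submitters' notes name bedtools 2.16 and SICER 1.1. Mapped reads and exon lengths were recovered from the ratio of the deposited counts to RPKM, with lengths whole to within 1.97e-07.

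Ratios were formed from RPKM, with exact (Clopper-Pearson) binomial 95% intervals of the read ratio (scipy 1.17.1), which cover counting error only. The study's 2.5-fold cutoff and RPKM threshold of 1 were used, with 1 transcript per symbol as background. No test was run, since each condition has 1 library. Alternatives were scaling by summed counts, TMM factors (edgeR 4.0.16 in R 4.3.3, no test), division by medians over 20 bins of length, or of length and GC content (94.0% of expressed genes) in 5 rounds, other transcripts, a pseudocount of 1 RPKM, at least 20 reads, and other cutoffs.

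Symbols came from a RefSeq table of GRCm38.p6, used for names alone, and positions and GC content from GENCODE vM1 on NCBI37/mm9. The 50-base windows were matched with blastn 2.17.0. Scripts ran in Python 3.11.15 with pandas 2.3.3, numpy 2.4.6 and, for plots, matplotlib 3.10.9 and were tested on simulated data. The members and the 11 gene lists were chosen with earlier results of these data known. Of the listed genes, 2 (*Tcf24* and *Cd68*) were not matched in the files, and 1 further listed gene is not reported here. Named genes are the members and the 3 genes most alike each member. Also named are list genes with at least 100 reads in 1 library of a pair and a ratio past 2.5-fold. *Twist1*, *Twist2*, *Bambi* and single lowly counted list genes were named after their values were seen.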

Additional observations from a re-analysis of the deposited data

Results flagged for a closer look

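For 3 genes the same comparison ran in opposite directions in 2 settings. These differences were not tested, since each condition has 1 library. *Tcf4* was lower at day 2 than at day 0 in GFP cells (log2 −1.0) and higher in Cre cells (0.79), a difference of 1.79, and after division by the length and GC trends the values were −1.30 and 1.61. *Tcf3* was lower at day 2 in GFP cells (−0.49) and was higher at day 2 in Cre cells (0.16), a difference of 0.65, but after division by the trends both values were negative (−0.41 and −0.19). *Id1* was higher in Cre than in GFP cells at day 0 (0.31) and lower at day 2 (−0.26), a difference of −0.56; with TMM factors the values were 0.33 and −0.07, and after the trends 0.50 and −0.83.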

How the results depend on the processing

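No paired analysis was possible because each condition has 1 library and the labels give no replicate numbers; for the same reason no replicate could be left out. Of 28 member ratios, 28 kept their direction with other transcripts, a pseudocount or at least 20 reads, 27 with summed counts, 25 with TMM factors, 24 with the length trend and 22 with the length and GC trends. The ratio that changed sign with summed counts was day 2 over day 0 in Cre cells for *Id3* (−0.07 to 0.11). Those with TMM factors were day 2 over day 0 in GFP cells for *Tcf12*, *Id2* and *Id4* (0.05, 0.12 and 0.03 to −0.10, −0.03 and −0.12). Both trends changed the sign of the same 3 and of day 2 over day 0 in Cre cells for *Id1* (0.27 to −0.61), and the length and GC trends also of *Tcf3* there (0.16 to −0.19) and between cell types at day 0 (0.02 to −0.07).

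Members past 2.5-fold between days in GFP cells numbered 1, with 2 at a 2-fold and 0 at a 4-fold cutoff. In Cre cells 1 higher became 2 higher (*Tcf4* and *Id4*) and 0 lower with the length trend and with the length and GC trends. Expressed genes then numbered 805 higher and 1054 lower of 11526 with the length trend, and 668 and 956 of 10852 with both. At 2-fold there were 1 higher (*Id4*) and 1 lower (*Tcf12*), beside 1678 and 1861 of 11526 expressed genes. Between cell types at day 0, 1 became 0 with the pseudocount, at 4-fold, and when the interval bound had to pass 2.5-fold. At day 2, 4 (3 higher, 1 lower) became 4 higher and 0 lower with summed counts and TMM factors, 3 higher and 0 lower by the interval bound and with the length trend, and 2 with the length and GC trends and at 4-fold. The Id to E protein ratio of Cre cells moved at day 2 to 2.02 with the longest transcripts and to 1.03 with the length trend and 1.09 with both, and at day 0 to 2.03 and 2.13.

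Expressed genes past 2.5-fold between days in GFP cells (2429) numbered 1582 with the pseudocount and 1318 at 4-fold. In Cre cells (2156) they numbered 1259 with the pseudocount, 3539 at 2-fold, 924 at 4-fold and 1339 by the interval bound. Between cell types at day 0 (621) they numbered 286, 998, 310 and 334 in the same order, and at day 2 (2102) 1146, 3532, 753 and 1259. At day 2 the length and GC trends gave 1363, with 55.7% of them higher in place of 44.7%, and the share was 55.4% with summed counts, 59.6% with TMM factors and 57.7% with the length trend. Between days in Cre cells 46.4% were higher, and 59% with summed counts. The cause of these shifts was not tested. At this depth *Id4* in GFP cells, with 49 and 67 reads, is the least precise member.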
